A study of Mus musculus with 18 samples.

Results

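The genes described here are the cytokine gene Tnf and 9 genes of the NF-kB pathway that it acts through: Tnfaip3, Nfkbia, Nfkbie, Nfkbiz, Nfkb1, Nfkb2, Rel, Relb, and Birc3. They were chosen by name, 10 of the 34989 genes with a transcript in the files, and all 10 passed the filter on low counts in every comparison. Hearts of C57B/L6 mice, aged 12 weeks by the labels and carrying no genetic change in them, were preserved with cold HTK, a cardioplegic solution. The study's methods give a younger age than the labels. The hearts were kept on ice in the HTK for 0, 4, or 8 h. Each heart was then perfused ex vivo with Krebs buffer for 1 h, and RNA of the left ventricle (LV) and right ventricle (RV) was sequenced, with 3 libraries for each of the 6 groups and 18 in all. The 0 h controls were infused and perfused in the same way, so that no group holds an unperfused heart, and the buffer carries no blood.

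TNF binds receptors on the cell surface that recruit adaptor proteins and ubiquitin ligases, and these turn on the IKK kinases. IKK marks the inhibitors of NF-kB (the IkB proteins) for destruction, and the freed NF-kB dimers enter the nucleus and raise the transcription of inflammatory genes. Several of those target genes encode parts of the same pathway. Nfkbia and Nfkbie encode IkB proteins that return NF-kB to the cytoplasm, Tnfaip3 encodes the ubiquitin-editing enzyme A20 that quiets the receptor complex, and Birc3 encodes a ubiquitin ligase of that complex. Nfkb1, Nfkb2, Rel, and Relb encode subunits of NF-kB itself, and Nfkbiz encodes a nuclear IkB protein that helps NF-kB act on a subset of targets. In the heart, TNF is made by resident macrophages and by cardiomyocytes and is known to depress contraction.

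The libraries held 22552581 to 46236771 estimated counts, of which genes of the mitochondrial genome took 22.7 to 34.4%. This share moved with storage: the 6 libraries at 8 h had 32.0 to 34.4%, the LV controls 24.1 to 28.3%, and the RV controls 22.7 to 32.6%, and its part in the changes from 0 h to 8 h was not tested. Transcripts of ventricular cardiomyocytes were abundant in every library, with 6 of 6 markers above 0 throughout and a summed level of 26451 to 63323 CPM (counts scaled to the size of the library). This sum was lower at 8 h. In LV it was 52028.5 to 63323 CPM at 0 h and 38793 to 45536 CPM at 8 h. In RV it was 54829 to 62918 CPM at 0 h and 26451 to 51623 CPM at 8 h. The part of this shift in the changes from 0 h to 8 h was not tested. Libraries stood apart in 2 ways that touch these genes. At 0 h, replicate 1 was the highest of the 3 libraries for 10 of the 10 genes in both LV and RV. In LV it was 1.30 to 3.50 times the mean of the other 2 libraries (median 2.39), and in RV 1.24 to 3.75 times (median 2.64). At 8 h, replicate 3 was the highest library for 10 of 10 genes in LV and for 8 of 10 in RV, at a median of 1.76 and 1.53 times the mean of the other 2. The same replicate 3 libraries held by far the most RNA of 10 interferon-induced genes: 7141 CPM in LV at 8 h against 781 and 1084 in the others, and 10302 CPM in RV against 882 and 1964. For replicate 3 at 4 h the sums were 4554 CPM (LV) and 4844 CPM (RV), and the other 4 libraries had 356 to 508 CPM. The part of this difference in the results was not tested, and counts without these libraries are given below. In tissue RNA, more RNA per cell and more cells of a type cannot be told apart.

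Expression per transcript length, as TPM (scaled to length and then to the library), placed Nfkbia highest of the 10 genes in all 6 groups. At 0 h in LV it reached 138 ± 81.4 TPM (mean ± SD, n = 3), followed by Nfkbiz (50.4 ± 33.5), Tnf (37.5 ± 28.5), and Tnfaip3 (36.9 ± 28.6). Nfkbie was lowest there, at 3.58 ± 1.86 TPM. The 3 libraries were so far apart at 0 h that each gene in this order overlapped its neighbour, in LV and in RV. At 8 h in RV, Nfkbia was at 452 ± 142 TPM, Tnfaip3 at 148 ± 26.4, and Birc3 at 133 ± 46.2, and Nfkbia no longer overlapped the next gene. Tnf went from the third place at 0 h to the eighth in LV at 8 h (28.7 ± 4.43 TPM) and to the sixth in RV (60.8 ± 10.3 TPM), where it overlapped both neighbours. Rel was the lowest gene at 4 h and 8 h in both ventricles, at 8.07 ± 1.78 TPM in LV and 12.8 ± 1.33 TPM in RV at 8 h.

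**Figure D1:**
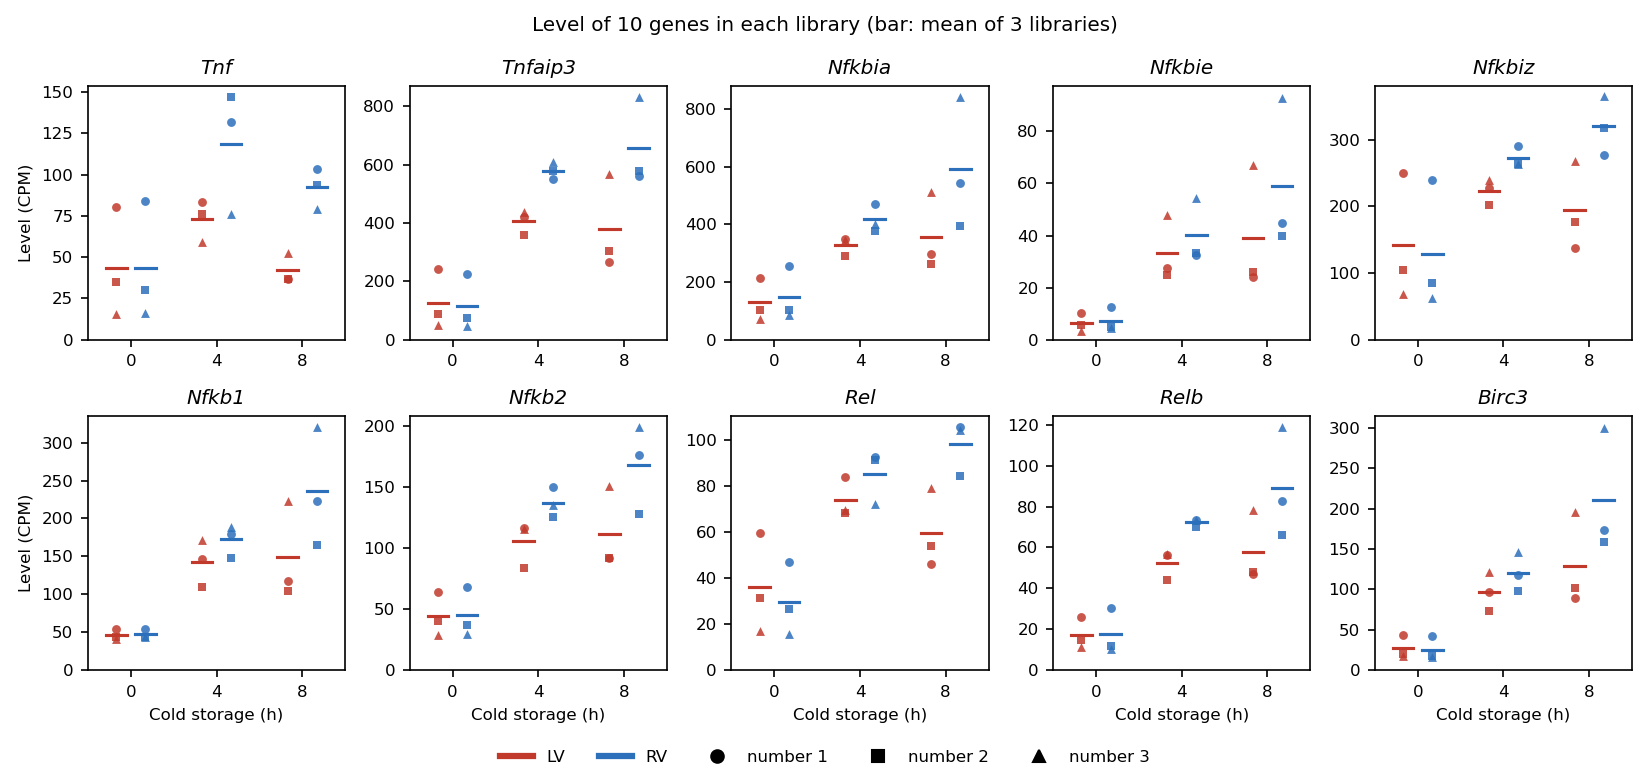
Level of each of the 10 genes in CPM (vertical axes, linear, from 0) against hours of cold storage, 1 point per library, with LV in red, RV in blue, the marker shape giving the replicate number and the bar the mean of 3 libraries. Replicate 1 (circles) is the highest at 0 h in every panel, and at 8 h every RV mean lies above the LV mean.

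NF-kB acts at short sequences called κB sites, and the promoters of several of these genes are known to hold them. The bases just before the annotated start are printed for the genes whose window held a match, with Tnf for contrast. Windows of 300 bases, 250 before and 50 after each RefSeq start, were given for 7 of the 10 genes (10 windows). The named κB consensus was searched on both strands, and matches on opposite strands that overlap are counted as found. It occurred in 4.51% of the 32851 mouse windows, and 5.14% of the 27025 genes had a window with it. Among the 7 genes, 5 had one: Tnfaip3, Nfkbia, Nfkbie, Nfkb2, and Rel. In the lines that follow, the 150 bases before the start are given 5′ to 3′ on the strand of the gene (RefSeq, GRCm38.p6), and capitals mark the matches to the κB consensus.
Tnfaip3, chr10:19015411-19015560, minus strand: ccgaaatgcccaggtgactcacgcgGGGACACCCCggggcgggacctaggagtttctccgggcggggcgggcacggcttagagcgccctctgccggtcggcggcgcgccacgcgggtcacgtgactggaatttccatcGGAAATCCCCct
Nfkbia, chr12:55492648-55492797, minus strand: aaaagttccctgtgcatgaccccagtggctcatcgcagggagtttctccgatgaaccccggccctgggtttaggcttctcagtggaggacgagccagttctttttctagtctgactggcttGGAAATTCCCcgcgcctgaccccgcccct
Nfkbie, chr17:45555550-45555699, plus strand: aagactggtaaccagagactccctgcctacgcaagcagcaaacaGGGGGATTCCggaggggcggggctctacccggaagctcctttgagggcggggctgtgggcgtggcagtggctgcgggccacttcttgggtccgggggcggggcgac
Nfkb2, the first of 3 windows, chr19:46304587-46304736, plus strand: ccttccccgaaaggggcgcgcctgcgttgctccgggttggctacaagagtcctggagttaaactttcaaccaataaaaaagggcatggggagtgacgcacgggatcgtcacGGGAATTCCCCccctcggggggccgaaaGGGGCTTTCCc
Rel, chr11:23770970-23771119, minus strand: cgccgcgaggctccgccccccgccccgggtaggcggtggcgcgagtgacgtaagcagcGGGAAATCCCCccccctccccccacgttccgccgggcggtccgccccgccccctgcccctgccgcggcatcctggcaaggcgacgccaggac
Tnf, chr17:35202008-35202157, minus strand: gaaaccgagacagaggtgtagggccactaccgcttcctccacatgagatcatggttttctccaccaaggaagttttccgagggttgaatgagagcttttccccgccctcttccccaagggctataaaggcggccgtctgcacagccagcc

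The matches lay at bases -125 to -116 and -12 to -3 in Tnfaip3, -29 to -20 in Nfkbia, -106 to -97 in Nfkbie, and -92 to -82 in Rel, counted back from the base before the start. Nfkb2 held matches in each of its 3 windows, of which those at -39 to -29 and -11 to -2 are in the printed one. The matches in Tnfaip3 are all in its first window, the printed one. The letters of the consensus are not in its second window or in the windows of Tnf and Birc3, which says nothing of sites elsewhere. The Tnf window held TATAAA at -29 to -24, a sequence found in 13.6% of all windows. TATAAA was also in windows of Tnfaip3 (-225 to -220) and Nfkbia (20 to 25, after the start and on the opposite strand). A match is a description of the letters, and no binding was measured in these hearts. For reference, the genes lie at chr17:35199381-35202007 (Tnf), chr10:19000910-19015657 (Tnfaip3), chr12:55489410-55492647 (Nfkbia), chr17:45555703-45563169 (Nfkbie), chr16:55811375-55838899 (Nfkbiz), chr3:135584655-135691547 (Nfkb1), chr19:46304320-46312385 (Nfkb2), chr11:23736847-23770970 (Rel), chr7:19606217-19629438 (Relb), and chr9:7848699-7873186 (Birc3) of GRCm38, and are protein-coding.

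**Figure D2:**
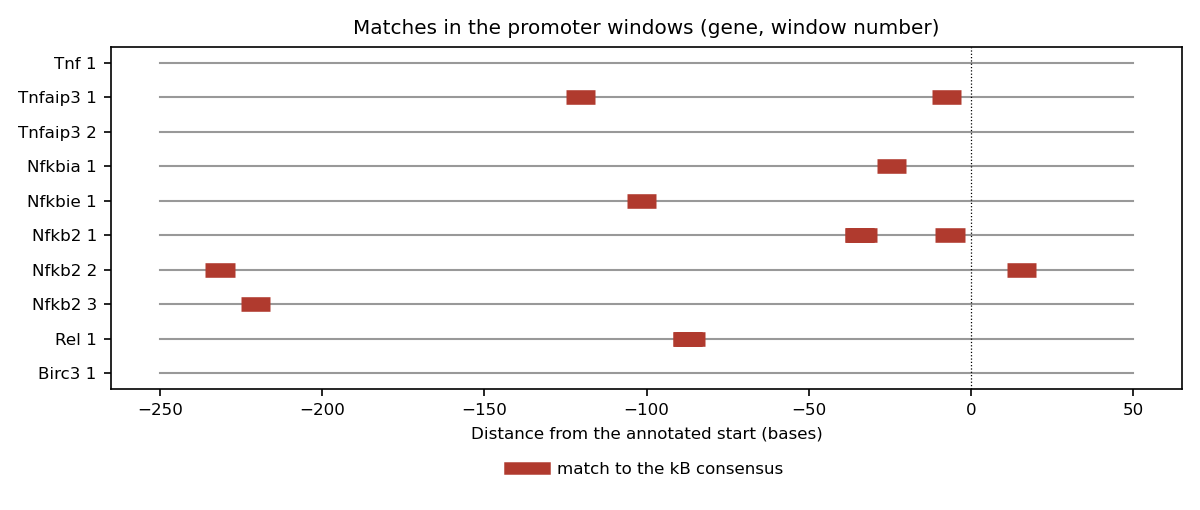
Position of matches to the κB consensus (red blocks) in the 10 promoter windows of 7 genes, as distance in bases from the annotated start (horizontal axis), 1 line per window. Matches lie within 125 bases before the start in Nfkbia, Nfkbie, Rel, and the first windows of Tnfaip3 and Nfkb2. There are none in the second window of Tnfaip3 or in the windows of Tnf and Birc3.

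The first question was whether these genes changed with the length of cold storage before reperfusion. Genes were compared with the quasi-likelihood test of edgeR, with a call needing a Benjamini-Hochberg adjusted p (over all genes tested) below 0.1 together with more than a 1.5-fold change, as the study set them. In LV, 5 of the 10 genes rose at 4 h (Nfkbie, Nfkb1, Nfkb2, Relb, and Birc3), where 2.4% of all genes tested were called higher. At 8 h, 6 rose in LV, with Nfkbia added, against 5.46% of all genes. In RV, 8 of 10 rose at 4 h, all but Tnf and Nfkbiz, against 6.17% of all genes, and 9 rose at 8 h, all but Tnf, against 13% of all genes. None of the 10 was called lower, against 0.398% and 1.26% of all genes at 4 h and 8 h in LV and 3.91% and 5.26% in RV. In LV the median log2 fold change of the 10 genes was 1.46 after 4 h and 1.52 after 8 h, and the RV medians were 1.75 and 2.18, whereas that of all genes tested lay between -0.07 and 0.00. The 4 h and 8 h comparisons of a ventricle share the same 3 controls.

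Same-numbered RV libraries deviated together from their group means, if weakly (correlations over genes of 0.15 to 0.33 against 0 h). With the replicate number as a block Tnf was called too, which gave 9 genes at 4 h (all but Nfkbiz, against 8.45% of all genes) and 10 of 10 at 8 h (against 15.5%). A heart has 1 storage time, so the number does not stand for a heart in this block. Among the 10 genes, RV replicate 3 was the lowest library for 9 at 0 h and the highest for 8 at 8 h. The LV counts rested on single libraries: at 4 h no gene was called without LV 0 h replicate 2, without LV 0 h replicate 3, without LV 4 h replicate 1, or without LV 4 h replicate 3, 3 were called without LV 4 h replicate 2 or without LV 8 h replicate 2, and 10 were called without LV 0 h replicate 1. At 8 h in LV, none was called without LV 0 h replicate 2, 2 (Nfkb1 and Relb) without LV 0 h replicate 3, and 9 without LV 0 h replicate 1. In RV at 4 h, 1 gene (Nfkb1) was called without RV 0 h replicate 2, whereas at 8 h 8 to 10 genes were called with any 1 library left out. Without all 4 h and 8 h libraries numbered 3, those rich in interferon-induced RNA, LV had 5 called genes at 4 h and 4 at 8 h, while RV had 9 and 8.

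**Figure D3:**
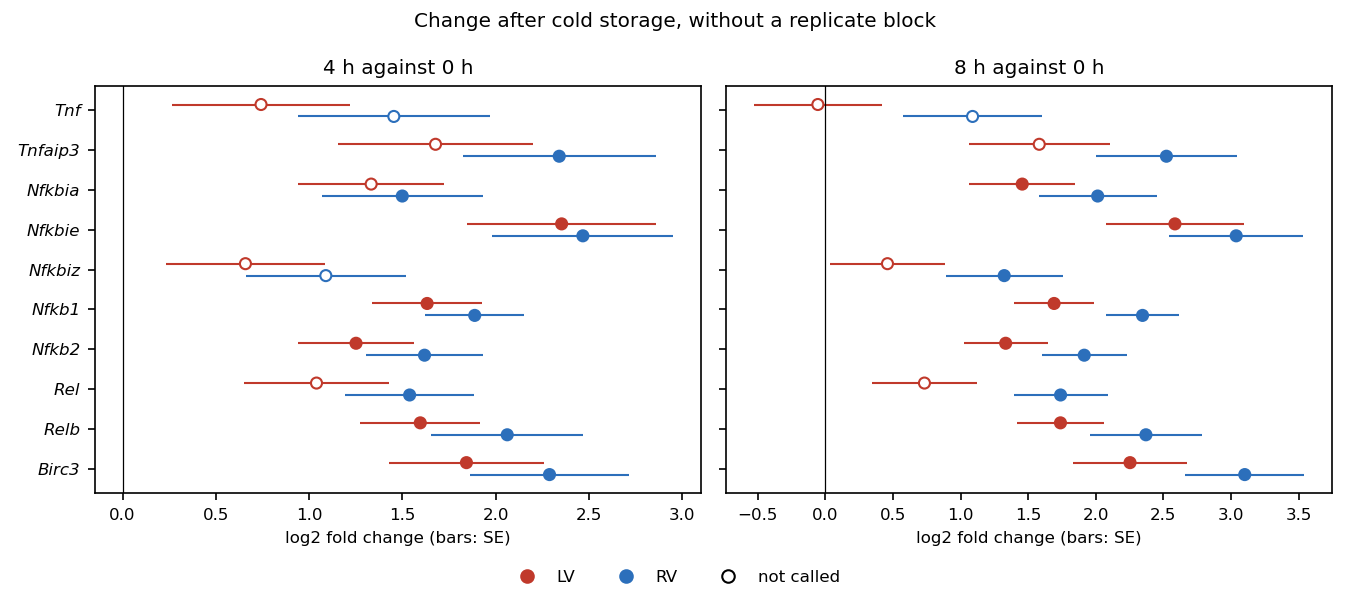
Log2 fold change of each gene (horizontal axis) at 4 h and at 8 h against 0 h in LV (red) and RV (blue), with standard errors as bars, and filled points for genes called without a block. Every point is positive except Tnf in LV at 8 h (-0.05), and the RV points lie to the right of the LV points for all 10 genes.

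Tnf, the ligand, was the only one of the 10 genes called in none of these comparisons without the block. In LV its level was 80.7, 34.8, and 15.5 CPM in the 3 libraries at 0 h, 83.4, 76.2, and 59.5 CPM at 4 h, and 36.6, 36.8, and 52.6 CPM at 8 h. The 0 h libraries overlapped both later groups, while all 3 libraries at 8 h lay below all 3 at 4 h, as was the case for 7.59% of all genes. In RV, Tnf was at 84.1, 30.4, and 16.0 CPM at 0 h, 132, 147, and 76.0 CPM at 4 h, and 103, 93.9, and 79.4 CPM at 8 h, with replicate 1 at 0 h inside the range of the stored hearts. On the log2 scale the LV change was 0.74 ± 0.48 at 4 h (± SE, adjusted p = 0.513) and -0.05 ± 0.47 at 8 h (adjusted p = 0.955). In RV it was 1.45 ± 0.52 at 4 h (adjusted p = 0.135) and 1.09 ± 0.51 at 8 h (adjusted p = 0.181), and with the replicate block 1.67 ± 0.39 (adjusted p = 0.0377) and 1.37 ± 0.39 (adjusted p = 0.0456). In LV at 8 h the fold change ranged from -0.46 to 0.74 on the log2 scale as 1 library was left out, the highest value being that without LV 0 h replicate 1.

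Among the feedback inhibitors, Tnfaip3 rose in RV, and in LV it did not pass the test. Its LV level was 243, 88.6, and 50.1 CPM at 0 h, 422, 359, and 437 CPM at 4 h, and 265, 305, and 568 CPM at 8 h, so that every stored library exceeded every control, if narrowly at 8 h. The LV log2 fold changes of 1.68 ± 0.52 at 4 h and 1.58 ± 0.52 at 8 h had adjusted p values of 0.170 and 0.123 and were not called. In RV the level was 226, 74.8, and 45.9 CPM at 0 h, 551, 579, and 610 CPM at 4 h, and 560, 577, and 831 CPM at 8 h. Tnfaip3 rose there by 2.34 ± 0.52 at 4 h (adjusted p = 0.0341) and 2.52 ± 0.52 at 8 h (adjusted p = 0.0149) on the log2 scale. Every stored RV library lay above every control, which held for 9 of the 10 genes at each time in RV, all but Tnf. Of all genes this held for 15.1% at 4 h and 18.5% at 8 h. In LV it held for 8 genes at 4 h against 12.9% of all genes, and for 7 at 8 h against 15.5%. The opposite, every stored library below every control, held for 0 of the 10 genes in any of these comparisons. Of all genes it held for 16.7% and 17% in RV, and for 11.3% and 13.1% in LV, at 4 h and 8 h.

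Nfkbia, which encodes IkB-alpha, was at 216, 105, and 72.0 CPM in LV at 0 h, 349, 290, and 348 CPM at 4 h, and 298, 263, and 512 CPM at 8 h. Its LV change of 1.33 ± 0.39 at 4 h had an adjusted p of 0.148, and at 8 h it rose by 1.46 ± 0.39 (adjusted p = 0.0768) on the log2 scale. In RV, Nfkbia was at 255, 105, and 87.4 CPM at 0 h, 473, 377, and 403 CPM at 4 h, and 546, 394, and 842 CPM at 8 h, a rise of 1.499 ± 0.43 and 2.01 ± 0.44 (adjusted p = 0.0743 and 0.0179). Each stored library was above each control in both ventricles. Nfkbie, which encodes IkB-epsilon, rose more from a lower level. Its LV libraries held 10.2, 5.77, and 3.48 CPM at 0 h, 27.4, 24.7, and 47.7 CPM at 4 h, and 24.2, 26.2, and 66.9 CPM at 8 h, with log2 fold changes of 2.35 ± 0.51 and 2.58 ± 0.51 (adjusted p = 0.0679 and 0.0336). Its RV libraries held 12.4, 5.05, and 4.47 CPM at 0 h, 32.4, 33.5, and 54.5 CPM at 4 h, and 44.7, 39.7, and 92.9 CPM at 8 h. The RV log2 fold changes of 2.47 ± 0.48 and 3.04 ± 0.50 (adjusted p = 0.0224 and 0.00617) correspond to 5.53-fold and 8.21-fold. Replicate 3 was the highest Nfkbie library at 4 h and 8 h in both ventricles, at 2.66 times the mean of the other 2 in LV at 8 h.

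Nfkbiz changed least of the members that encode IkB proteins. Its LV libraries ranged from 69.1 to 251 CPM at 0 h, from 202 to 240 CPM at 4 h, and from 138 to 268 CPM at 8 h, which overlap, and its LV changes of 0.66 ± 0.43 and 0.46 ± 0.42 on the log2 scale were not called (adjusted p = 0.516 and 0.531). In RV it went from 63.4 to 240 CPM at 0 h to between 263 and 291 CPM at 4 h and between 277 and 366 CPM at 8 h. The RV change was 1.09 ± 0.43 at 4 h (adjusted p = 0.176), and at 8 h Nfkbiz rose by 1.32 ± 0.43 (adjusted p = 0.0763). Birc3, the ubiquitin ligase, rose most in RV at 8 h. It was at 43.8, 20.02, and 17.5 CPM in LV at 0 h, 96.9, 73.6, and 121 CPM at 4 h, and 89.8, 102, and 195 CPM at 8 h. In RV it was at 41.9, 17.3, and 15.6 CPM at 0 h, 118, 97.7, and 146 CPM at 4 h, and 174, 159, and 300 CPM at 8 h. No stored library fell into the range of the controls. The log2 fold changes of Birc3 were 1.84 ± 0.41 and 2.25 ± 0.42 in LV (adjusted p = 0.0763 and 0.0284) and 2.29 ± 0.43 and 3.10 ± 0.44 in RV (adjusted p = 0.0194 and 0.00364), the last of them 8.58-fold.

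Of the subunits, Nfkb1, the gene of p105 and p50, had the tightest controls. Its LV libraries were at 54.5, 43.0, and 40.9 CPM at 0 h, 147, 110, and 172 CPM at 4 h, and 118, 105, and 223 CPM at 8 h, and its RV libraries at 54.1, 43.1, and 44.1 CPM, then 180, 148, and 189 CPM, then 222, 164, and 321 CPM. The coefficient of variation of the 0 h libraries was 15.9% in LV and 12.9% in RV, the lowest of the 10 genes, and for Tnfaip3, the highest, it was 80.2% and 83.7%. Nfkb1 rose by 1.63 ± 0.30 and 1.69 ± 0.30 in LV (adjusted p = 0.0406 and 0.0230) and by 1.89 ± 0.27 and 2.35 ± 0.27 in RV (adjusted p = 0.00775 and 0.00165). These were the smallest adjusted p values of the 10 genes in each of the 4 comparisons. Nfkb2, the gene of p100 and p52, ranged from 28.6 to 63.7 CPM at 0 h in LV and rose to between 83.3 and 117 CPM at 4 h and between 91.7 and 150 CPM at 8 h (log2 1.25 ± 0.31 and 1.33 ± 0.31, adjusted p = 0.0973 and 0.0516). In RV it ranged from 29.7 to 67.8 CPM at 0 h and rose to between 125 and 150 CPM and between 128 and 199 CPM (log2 1.62 ± 0.31 and 1.91 ± 0.31, adjusted p = 0.0213 and 0.00637).

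Relb, the partner of p52 in the alternative NF-kB pathway, ranged from 11.1 to 26.1 CPM in LV at 0 h, from 44.1 to 56.8 CPM at 4 h, and from 46.8 to 78.4 CPM at 8 h. It rose by 1.60 ± 0.32 and 1.74 ± 0.32 in LV (adjusted p = 0.0555 and 0.0279). Its RV range of 10.1 to 30.3 CPM at 0 h was followed by 69.9 to 73.7 CPM at 4 h and 66.2 to 119 CPM at 8 h, a rise of 2.06 ± 0.41 and 2.37 ± 0.41 (adjusted p = 0.0230 and 0.00799). Rel, the gene of c-Rel, was the only subunit gene among the 10 members not called in LV. It was at 17.1 to 59.4 CPM at 0 h, 68.1 to 83.7 CPM at 4 h, and 45.9 to 79.1 CPM at 8 h there, with overlap at 8 h, and its changes of 1.04 ± 0.39 and 0.73 ± 0.39 were not called (adjusted p = 0.244 and 0.287). In RV, Rel went from 15.5 to 46.9 CPM at 0 h to between 72.0 and 92.7 CPM and between 84.5 and 106 CPM, and rose by 1.54 ± 0.34 and 1.74 ± 0.35 (adjusted p = 0.0351 and 0.0132).

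Between 4 h and 8 h no member was called in LV or RV by edgeR or DESeq2, none had an unadjusted p under 0.05, and 0% of all genes were called by edgeR. The largest of these differences were those of Tnf in LV (log2 -0.80 ± 0.48, adjusted p = 0.652) and of Birc3 in RV (0.81 ± 0.41, adjusted p = 0.599). All 3 RV libraries of Birc3 at 8 h lay above all 3 at 4 h, as did those of 6% of all genes.

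The second question was whether the ventricles differed. Both ventricles of a heart were collected, and same-numbered LV and RV libraries of a storage time deviated together from their group means (correlations of 0.49 to 0.81 over genes), so that each difference is also given with the heart as a block. Whether a replicate number stands for 1 heart is not given by the labels. At 0 h LV was below RV in 11 of 30 same-numbered pairs (10 genes, 3 pairs each). LV was above RV in 3 of 3 pairs for Tnfaip3, Nfkbiz, Rel, and Birc3, and the other 6 genes had pairs of both directions. Over the 30 pairs the RV level was 0.79 to 1.28 times that of LV. No gene was called with or without the block by edgeR, or by DESeq2, none had an unadjusted p under 0.05, and 0.159% of all genes were called (1.85% with the block). At 4 h LV was below RV in 30 of 30 pairs, with RV at 1.04 to 1.93 times LV, and at 8 h in 30 of 30 pairs, with RV at 1.32 to 2.82 times LV. The 30 pairs of a storage time are the same 3 pairs of libraries read in 10 genes, and are not independent observations. The share of all genes with LV below RV in every pair was not computed.

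**Figure D4:**
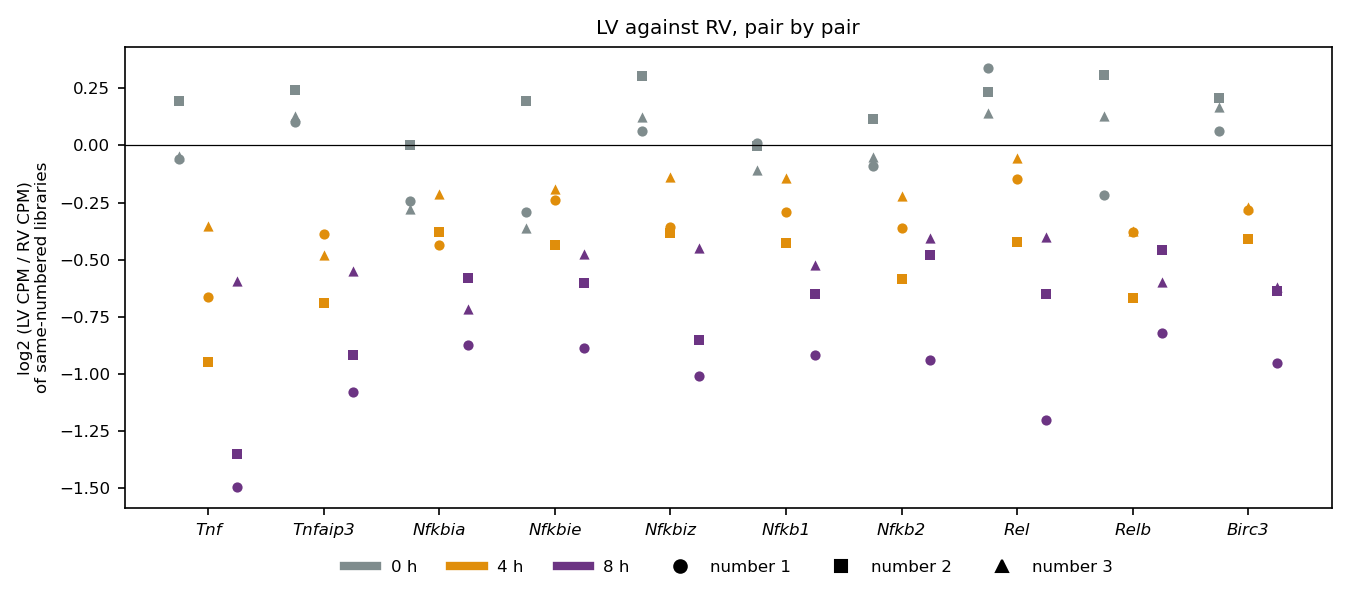
Log2 ratio of the LV to the RV level in CPM of same-numbered libraries (vertical axis) for each of the 10 genes, with the colour giving the storage time and the marker shape the replicate number. The 0 h pairs lie on both sides of 0, and the 30 pairs at 4 h and the 30 at 8 h all lie below it.

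Without the block, no gene was called between LV and RV at 4 h or at 8 h by edgeR or DESeq2, against 0.0133% and 0.0331% of all genes by edgeR. Of the members, 0 at 4 h and 1 at 8 h (Nfkb1) had an unadjusted p under 0.05, as had 446 and 1669 of the 15093 genes tested. With the heart as a block, 1 gene, Tnf, was lower in LV at 4 h, where 1.09% of all genes were called lower, and 10 of 10 were lower in LV at 8 h, where 6.53% of all genes were. The call of Tnf at 4 h was lost when any 1 of the 3 hearts was left out. At 8 h, 5 genes (Tnf, Tnfaip3, Nfkbia, Nfkbiz, and Birc3) were called without the heart of replicate 1, and 10 without either of the other two. The median log2 difference between LV and RV at 8 h was -0.73 for the 10 genes and 0.02 for all genes.

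Tnf had the largest difference between the ventricles at 8 h. Its LV level of 36.6, 36.8, and 52.6 CPM in replicates 1, 2, and 3 faced 103, 93.9, and 79.4 CPM in RV, so that RV was 2.82, 2.55, and 1.51 times LV. The log2 difference was -1.15 ± 0.16 with the block (adjusted p = 0.000676) and -1.13 ± 0.54 without it (adjusted p = 0.454). At 4 h it was -0.66 ± 0.15 with the block (adjusted p = 0.0483) and -0.70 ± 0.54 without it. At 4 h all 3 LV libraries lay below all 3 RV libraries for Tnfaip3, Nfkbia, Nfkbiz, Nfkb2, and Relb (4.62% of all genes). For Tnf, Nfkbiz, and Rel all 3 LV libraries lay below all 3 RV libraries at 8 h, as in 5.94% of all genes. The LV and RV libraries of the other 7 members overlapped at 8 h. Tnfaip3 followed with -0.85 ± 0.11 at 8 h (adjusted p = 0.000540), its RV level being 2.11, 1.89, and 1.46 times that of LV. The other 8 genes differed by -0.77 ± 0.11 (Nfkbiz) to -0.61 ± 0.11 (Nfkb2) with the block. The smallest adjusted p was that of Birc3, with -0.74 ± 0.08 (adjusted p = 0.000291) and an RV level 1.94, 1.56, and 1.54 times that of LV. The ratio of RV to LV at 8 h was largest in replicate 1 for 10 of 10 genes.

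The difference between the ventricles in the change from 0 h was tested itself. From 0 h to 4 h no member was called with or without the block (0.305% and 0% of all genes), and 7 members with the block and 0 without had an unadjusted p under 0.05, as had 1343 and 158 of the 15093 genes tested. From 0 h to 8 h no member was called without the block by edgeR or DESeq2, none had an unadjusted p under 0.05, and 0% of all genes were called. With the block the log2 change from 0 h was lower in LV than in RV for 8 of 10 genes, against 4.72% of all genes called in that direction: Tnf (log2 -1.18 ± 0.22, adjusted p = 0.00940), Tnfaip3 (-1.01 ± 0.15, adjusted p = 0.00334), Rel (-0.996 ± 0.18, adjusted p = 0.00827), Nfkbiz (-0.93 ± 0.15, adjusted p = 0.00471), Birc3 (-0.88 ± 0.11, adjusted p = 0.00166), Relb, Nfkb1, and Nfkb2. Nfkbia (-0.55 ± 0.13, adjusted p = 0.0304) and Nfkbie (-0.49 ± 0.16, adjusted p = 0.0918) stayed under the fold threshold. With any 1 heart left out, 6 to 9 genes were called. In the same comparison the macrophage markers had a median difference of -0.0097 on the log2 scale (0.0095 with the block), and edgeR called 0 of the 7. At 8 h they summed to 168 to 240 CPM (LV) and 197 to 326 CPM (RV), with all 7 markers above 0 in every library, against 114 to 177 CPM (LV) and 139 to 215 CPM (RV) in the controls. With the block, 1 of the 7 macrophage markers was called lower in LV than in RV at 8 h, against 6.53% of all genes. Against 0 h, without the block, 4 of the 7 were called higher at 8 h in RV (median log2 0.82) and 1 in LV (0.52). Of all genes, 13% and 5.46% were. The LV minus RV median at 8 h, without the block, was -0.31 for macrophage, -0.33 for fibroblast, -0.51 for smooth muscle, and -0.68 for atrial markers. At 0 h these medians were already -0.23, -0.32, -0.33, and -1.05. For endothelial, cardiomyocyte, and neutrophil markers the median was -0.05, 0.12, and 1.34 at 8 h, and 0.031, -0.0069, and -0.37 at 0 h. The neutrophil medians rest on 3 tested genes. The summed neutrophil markers at 8 h overlapped, at 9.83 to 18.3 CPM (LV) and 12.0 to 16.6 CPM (RV). The part of cell content in these differences was not tested.

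The other genes of the pathway were followed in lists. Of 22 genes of the TNF ligands, receptors and receptor complex, 20 passed the filter. At 8 h 5 rose in LV and 9 in RV, against 5.46% and 13% of all genes. In RV 2 fell, where 5.26% of all genes were called lower. Traf1, an adaptor of the TNF receptors, went from 2.61 ± 0.70 to 11.7 ± 5.64 CPM in LV (log2 2.15 ± 0.35, adjusted p = 0.0180) and from 3.02 ± 1.499 to 17.7 ± 8.46 CPM in RV (2.57 ± 0.43, adjusted p = 0.00696). Tnfrsf1b, the gene of the second TNF receptor, rose from 10.4 ± 2.24 to 35.2 ± 11.4 CPM in LV and from 11.8 ± 3.69 to 58.9 ± 17.8 CPM in RV. Cflar, an inhibitor of caspase-8, and Ripk1, the kinase of the complex, rose by 1.63 ± 0.43 and 1.33 ± 0.34 in LV and by 2.14 ± 0.41 and 2.37 ± 0.31 in RV. The genes that fell in RV were Tradd (-0.68 ± 0.22) and Tab1 (-0.71 ± 0.17), which were named after their values were seen, and both encode adaptors that carry the signal on. The median log2 fold change of the list was 0.35 in LV and 0.55 in RV.

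Of 12 kinases, inhibitors and subunits of the NF-kB module other than the 10 genes, at 8 h 4 rose in LV, 7 rose in RV, and none fell, with a median log2 fold change of 0.63 and 1.08. Bcl3, a nuclear IkB protein that pairs with p50 and p52, rose by 2.31 ± 0.39 in LV and 2.86 ± 0.44 in RV (adjusted p = 0.0191 and 0.00492). Rela, the gene of the p65 subunit, had LV levels of 62.5 ± 21.9 CPM at 0 h and 118 ± 46.0 CPM at 8 h (0.92 ± 0.32, adjusted p = 0.135), and in RV rose from 56.9 ± 21.1 to 187 ± 55.8 CPM (1.74 ± 0.30, adjusted p = 0.00792). Ikbke, a kinase related to IKK, rose by 1.81 ± 0.35 in LV and 1.82 ± 0.38 in RV. Map3k14, the kinase of the alternative pathway, changed by 0.73 ± 0.30 in LV (adjusted p = 0.183) and rose by 1.79 ± 0.20 in RV (adjusted p = 0.00139).

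Of 16 other negative regulators, at 8 h 5 rose in LV and 9 rose in RV, against 5.46% and 13% of all genes. Tnfaip8l2 was called lower in RV (-1.96 ± 0.66, named after its value was seen), against 5.26% of all genes. Its level was near the floor, at 0.044 to 1.03 CPM over all libraries. Tnip1 and Tnip3, whose proteins bind A20, rose by 2.46 ± 0.43 and 2.91 ± 0.31 in LV and by 3.32 ± 0.43 and 3.04 ± 0.41 in RV. Socs3, an inhibitor of cytokine receptor signaling, rose from 126 ± 43.7 to 390 ± 178 CPM in LV and from 77.6 ± 11.7 to 623 ± 116 CPM in RV. Zc3h12a, an RNase that destroys cytokine mRNAs, changed by 1.22 ± 0.43 in LV (adjusted p = 0.138) and rose by 2.17 ± 0.50 in RV (adjusted p = 0.0225). The medians of the list were 0.43 in LV and 1.37 in RV.

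Of 22 other inflammatory targets of TNF, at 8 h 12 rose in LV, 18 rose in RV, and none fell, with a median log2 fold change of 1.73 and 2.43. Il6, an acute-phase cytokine, went from 10.7 ± 6.82 to 202 ± 53.1 CPM in LV (4.24 ± 0.51, adjusted p = 0.00614) and from 6.23 ± 1.84 to 318 ± 63.1 CPM in RV (5.68 ± 0.45, adjusted p = 0.000543). Ptx3, a soluble pattern recognition protein, rose from 17.2 ± 13.7 to 368 ± 223 CPM in LV and from 18.1 ± 18.5 to 711 ± 146 CPM in RV. Lcn2, an iron-sequestering protein, rose by 3.59 ± 0.99 in LV and 4.64 ± 1.05 in RV on the log2 scale. Its 8 h level was 21.4 ± 22.6 CPM (LV) and 37.4 ± 40.3 CPM (RV), an SD above the mean. The growth factor gene Csf2 rose by 3.37 ± 0.75 and 4.55 ± 0.83, from a 0 h level near the floor (0.33 ± 0.37 and 0.29 ± 0.38 CPM). Traf1 is in this list and in that of the receptor complex. With the heart as a block, 15 of the 22 targets were lower in LV than in RV at 8 h, against 6.53% of all genes. In the change from 0 h to 8 h, 11 were lower in LV with the block, against 4.72% of all genes. None of the 22 was called in either comparison without the block.

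The 10 interferon-induced genes, in which replicate 3 at 4 h and 8 h stood apart, were called higher in 8 cases in LV and 9 in RV at 8 h. Of all genes, 5.46% and 13% were called higher. Mx1, Cxcl10, Ifit1, and Rsad2 changed most, by 5.18 to 6.06 on the log2 scale in LV and by 6.18 to 6.79 in RV, and the 8 h level of Mx1 was 68.9 ± 91.5 CPM (LV) and 91.7 ± 121 CPM (RV), an SD above the mean. Neutrophil markers rose from a summed 0.98 to 2.51 CPM at 0 h to 3.42 to 9.11 CPM at 4 h and 9.83 to 18.3 CPM at 8 h. Of the 5, Csf3r alone was above 0 in every library, and Ly6g, which defines the cells, was at 0 in 17 of 18. The part of neutrophils in the changes was not tested.

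Over the 18 libraries, the 9 genes other than Tnf varied together, with Pearson's r of log2 CPM between 0.81 and 0.99 (median 0.96) over their 36 pairs, while r with Tnf was 0.65 (Nfkb1) to 0.91 (Rel), with a median of 0.79 over 9 pairs. These values are descriptions over libraries that share hearts and storage times. The genes most like Tnf were Tiparp (0.95), Il1a (0.95), Nlrp3 (0.92), Egr4 (0.92), and Cxcl2 (0.92) of 15092 compared, and Rel was the 12th and Nfkbiz the 13th. Those most like Tnfaip3 were Icam1 (0.99), Nod2 (0.99), Csf1 (0.99), Ccl2 (0.99), and Relb (0.98), and Tnf was the 506th.

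The estimated counts also gave the share of each annotated transcript within a gene. Nfkbie and Rel had 1 transcript each in the files, and nearly all Tnf counts fell on Tnf-201 (99.7 to 100%). For Tnfaip3, the retained-intron transcript Tnfaip3-205 took 11.8 ± 2.23% of LV counts at 0 h and 7.58 ± 1.01% at 8 h, and 10.8 ± 4.73% and 5.64 ± 1.44% of RV counts, with Tnfaip3-201 taking 85.1 to 90.8% on average in all groups. The second Nfkb2 transcript, Nfkb2-202, took 41.2 ± 3.18% in LV at 0 h and 29.7 ± 8.38% at 8 h, and 30.04 ± 2.56% and 26.3 ± 0.95% in RV. The shares of Relb transcripts were not stable, with Relb-203 at 0.00589 to 77.0% over the libraries, so that the level of Relb is better known than its isoforms. These shares were not tested.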

How the data were processed

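RNA of LV and RV was measured in 18 libraries (22552581 to 46236771 estimated counts, which with 3 libraries per group limits the precision). The authors deposited, for each library, estimated counts per transcript (expected counts) made with kallisto on GRCm38 transcripts, and TPM scaled within a library. Estimated counts of 110203 of 111462 transcripts were summed to genes with GENCODE M21 and rounded, and 1259 transcripts without a match were left out. Genes were filtered with filterByExpr (minimum count 10), normalized by TMM, and tested with edgeR 4.0.16 in R 4.3.3. Storage times were compared in the 9 libraries of a ventricle and ventricles in all 18. Where a block was used, it was the replicate number for storage times. For ventricles it was the heart, taken as the storage time with the replicate number. CPM were scaled by TMM over 18 libraries. Alternatives were DESeq2 1.42.0, RLE factors, transcript-length offsets, no filter, the replicate block, all libraries in 1 model, each library left out, leaving out the 4 h and 8 h libraries numbered 3, and leaving out whole hearts. The last 2 were chosen after seeing the data.

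Pairing was checked by the correlation, over genes, of deviations from group means between same-numbered libraries. It was over 0.1 for every pair in RV storage comparisons (0.15 to 0.33 against 0 h), in the comparison of 8 h with 4 h in LV, and between ventricles, and not for LV against 0 h. Nothing says that the 3 libraries of a group came from separate animals beyond their labels as separate samples, so that p values measure the spread between these samples. The 10 genes and the lists were chosen with earlier results of these data known. All 10 genes are named, and from each list up to 4 genes called at 8 h with the largest mean change over LV and RV. For Tnf and Tnfaip3 the 5 genes of highest correlation are named. Promoter windows were taken from RefSeq. The scripts were tested on simulated data.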

Additional observations from a re-analysis of the deposited data

Results flagged for a closer look

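The change from 0 h to 8 h differed between LV and RV for 8 of the 10 genes in the fit with the heart as a block, and in none without it. The log2 difference, LV minus RV, was -1.18 for Tnf, -1.01 for Tnfaip3, -0.996 for Rel, -0.93 for Nfkbiz, -0.88 for Birc3, -0.68 for Relb, -0.66 for Nfkb1, and -0.60 for Nfkb2. The block rests on the replicate numbers, which the labels do not tie to hearts, and on the shared deviations of same-numbered libraries. Groups held 3 libraries, so that single libraries were not tested as outliers.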

How the results depend on the processing

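Each library group holds 3 samples, and differences between LV and RV rest on the pairing. With the heart as a block, the members called lower in LV went from 0 to 1 at 4 h and from 0 to 10 at 8 h, and those with a lower change in LV from 0 h to 8 h from 0 to 8. For LV against 0 h the numbers share no clear pairing (correlations of -0.034 to 0.30, and 2 of 6 libraries nearest their own number). There the block of replicate numbers gave 5 genes at 4 h and 7 at 8 h, the added one being Tnfaip3, and 8 of the receptor-complex list in place of 5. It moved all genes too. Those with an unadjusted p under 0.05 in edgeR went from 2271 to 2744 of 14564 at 4 h and from 3396 to 4191 at 8 h. DESeq2, RLE factors, length offsets, no filter, and all libraries in 1 model gave 4 to 6 genes in LV at 4 h, 5 to 7 at 8 h, 8 to 10 in RV at 4 h, and 9 at 8 h.

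Leaving out 1 library gave 0 to 10 genes in LV at 4 h, 0 to 9 at 8 h, 1 to 10 and 8 to 10 in RV, and 0 to 1 between the ventricles at 8 h (Nfkb1 without LV 8 h replicate 3). In the paired fit, leaving out 1 heart gave 0 to 0 genes at 4 h, 5 to 10 at 8 h, and 6 to 9 genes with a lower change in LV at 8 h. The cause was not tested.

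Directions turned only for changes that were not called without the block. Tnf in LV at 8 h was 0.18 with the block. Relb between the ventricles at 0 h was 0.0016 without the filter and 0.053 with the block. Without the 4 h and 8 h libraries numbered 3, the change from 4 h to 8 h was -0.0143 for Tnfaip3 in RV, and in LV -0.20 for Nfkbia, -0.0650 for Nfkbie, -0.22 for Nfkb1, -0.14 for Nfkb2, and -0.0947 for Relb. With 1 library left out, log2 values crossed 0 as follows. Tnf in LV at 8 h ran from -0.46 to 0.74. LV against RV at 0 h ran from -0.79 to 0.93 for Tnf, -0.74 to 1.09 for Tnfaip3, -0.76 to 0.46 for Nfkbia, -0.67 to 0.47 for Nfkbie, -0.58 to 0.95 for Nfkbiz, -0.17 to 0.095 for Nfkb1, -0.38 to 0.42 for Nfkb2, -0.30 to 0.79 for Rel, -0.44 to 0.67 for Relb, and -0.41 to 0.74 for Birc3. At 4 h it ran from -0.63 to 0.017 for Nfkbie. LV minus RV in the change to 4 h ran from -1.63 to 0.096 for Tnf, -1.61 to 0.22 for Tnfaip3, -0.81 to 0.41 for Nfkbia, -0.74 to 0.39 for Nfkbie, -1.24 to 0.28 for Nfkbiz, -0.80 to 0.0031 for Nfkb2, -1.01 to 0.086 for Rel, and -1.05 to 0.099 for Birc3, and in the change to 8 h from -1.18 to 0.038 for Nfkbia and -1.07 to 0.081 for Nfkbie. LV at 8 h against 4 h ran from -0.51 to 0.11 for Tnfaip3, -0.23 to 0.36 for Nfkbia, -0.40 to 0.63 for Nfkbie, -0.36 to 0.31 for Nfkb1, -0.20 to 0.26 for Nfkb2, -0.14 to 0.31 for Relb, and -0.024 to 0.64 for Birc3, and RV from -0.032 to 0.30 for Tnfaip3.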
